A study of Mus musculus with 12 samples.

Results

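The genes described here are those of sterol and fatty acid synthesis: the enzymes that build cholesterol from acetyl-CoA, the enzymes that make, elongate and desaturate fatty acids, and the regulators that tie both routes together. A list of 32 mouse genes set the members, and each was represented by 1 probe set, the one with the highest mean over all 12 arrays. On these arrays several short probes read 1 transcript and together form a probe set. Of the 32 genes, 30 were measured, out of 12393 genes and 22626 probe sets on the array, and the 30 had 59 probe sets between them. The other 2 had no probe set that carried their symbol alone and were not analysed here. All 30 lay above the noise level on every array, and 27 had a mean at or above the median probe set.

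Total RNA came from mucosa scraped from the fundus, the acid-secreting part of the mouse stomach, and each of 12 samples was hybridised to its own one-colour oligonucleotide array. Wild-type mice gave 3 samples, gastrin knockouts under saline infusion 3, gastrin knockouts under gastrin infusion 3, and double knockouts of gastrin and cholecystokinin (CCK) 3. Both infusions ran for 1 week. No infusion is given for the wild type or the double knockout, so a comparison of either with an infused knockout includes the infusion. The labels give sex and age, male and 2 months, only for the saline-infused knockouts, and give about 2 to 4 mice per sample for the wild type. Strain, gastrin dose and knockout alleles are not stated in these sources. Nothing in the labels ties the samples within a group to separate animals, so p-values here measure only the scatter of these samples, and that may be technical.

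Values are the deposited intensities, in arbitrary units, and are not compared between genes. Array medians lay between 403 and 421, and replicate arrays of a group correlated at 0.955 to 0.973 (Pearson, across probe sets). The parietal, chief and surface mucous cell markers were bright on all arrays. Gast, the gastrin gene, read 596, 318 and 823 in the wild type and at most 37 in the knockouts, while Cck lay near the noise in all groups and checks nothing. The double-knockout arrays had a lower top of their range (65365 to 71514, against 88899 to 113441 elsewhere). The Gapdh control read at its 3′ end over its 5′ end, which bears on RNA quality, gave a ratio of 1.51, 2.00 and 0.98 in the wild type and of 1.01 to 1.32 elsewhere. Fewer cells of a type and less RNA per cell cannot be told apart in such bulk samples.

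As background, cells make cholesterol by condensing acetyl-CoA to HMG-CoA, reducing it to mevalonate, assembling isoprenoid units into squalene, and closing and trimming the rings. When membranes run short of sterol, the transcription factors SREBP-2 and SREBP-1, products of Srebf2 and Srebf1, are cut free of the membrane and switch on nearly all of these enzymes together, SREBP-1 favouring the fatty acid branch. SREBP binds promoters beside the general factor NF-Y, which recognises CCAAT. The parietal cell keeps large reserves of intracellular membrane for its acid pump, and gastrin is a main hormone acting on this mucosa.

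Promoters of the genes that the results turn on are shown first, because the members are known for this shared control. RefSeq windows of mouse build GRCm38.p6, from 250 bases before to 50 after a transcript start, were at hand for 23 of the 30 members. Both strands were searched for the sterol regulatory element core TCACNCCAC, the NF-Y box CCAAT and the E-box CACGTG. None of the 3 motifs contains another, and a match is a description only. The stretches below lie upstream of the start, at chr13:119690151-119690330 on the plus strand for Hmgcs1, chr8:64733599-64733758 on the minus strand for Msmo1, chrX:8193533-8193702 on the minus strand for Ebp and chr1:169969206-169969385 on the minus strand for Hsd17b7. Each is written 5′ to 3′ along its gene, and capitals mark the motif matches, ATTGG being CCAAT read from the other strand.
Hmgcs1: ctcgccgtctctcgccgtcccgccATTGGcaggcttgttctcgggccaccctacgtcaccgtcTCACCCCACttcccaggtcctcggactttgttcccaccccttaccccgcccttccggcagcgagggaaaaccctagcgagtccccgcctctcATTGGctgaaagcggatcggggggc
Msmo1: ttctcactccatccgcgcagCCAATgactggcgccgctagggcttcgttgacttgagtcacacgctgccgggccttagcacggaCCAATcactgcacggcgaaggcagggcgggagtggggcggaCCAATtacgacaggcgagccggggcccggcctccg
Ebp: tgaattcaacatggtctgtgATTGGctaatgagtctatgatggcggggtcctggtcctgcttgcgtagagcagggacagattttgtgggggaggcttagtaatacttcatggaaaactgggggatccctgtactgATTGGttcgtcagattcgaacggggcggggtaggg
Hsd17b7: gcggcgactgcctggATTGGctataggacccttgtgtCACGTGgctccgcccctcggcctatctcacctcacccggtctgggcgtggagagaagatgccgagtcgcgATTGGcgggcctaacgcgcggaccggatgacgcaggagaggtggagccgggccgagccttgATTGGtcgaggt

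The Hmgcs1 stretch holds TCACCCCAC, a match to the sterol regulatory element core that starts at position -137 from the transcript start. It was the only such match among the 14 sterol enzymes with a window, and 1.44% of the 27025 genes in the table held one. CCAAT was present for all 14 sterol enzymes (100%), against 41.1% of all genes. Of the 7 fatty acid genes with a window, 4 held CCAAT (57.1%). The E-box was found in 3 of the 14 sterol enzymes (Hsd17b7, Sc5d and Dhcr7), against 8.09% of all genes. All 14 thus held CCAAT, whichever way their values ran below.

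Ebp passed the test in 2 of the 7 comparisons, and no other member did so in more than 1 by its brightest probe set. Ebp encodes the sterol isomerase that moves the ring double bond late in cholesterol synthesis. It read 2608, 2661 and 2640 in the wild type, 3489, 3476 and 3143 in the saline-infused knockout, 2691, 2789 and 2852 in the gastrin-infused knockout, and 3154, 3427 and 3005 in the double knockout. All 6 arrays of mice with gastrin, their own or infused, lay below all 6 arrays of mice without it. Relative to the wild type (mean 2636 ± 26.7, SD, n = 3), Ebp rose in the saline-infused knockout (3369 ± 196, SD, n = 3) by 0.35 ± 0.07 (SE) on the log2 scale, 1.28-fold (limma, adjusted p = 0.0404). Over all 4 groups, Ebp was lower with gastrin than without by 0.28 ± 0.05 on the log2 scale (log2 fold change -0.28, 95% confidence interval -0.39 to -0.17, limma, adjusted p = 0.0192).

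Ebp was the 1 member of 30 past the test in the saline-infused knockout against the wild type, where 2.08% of all probe sets were called. It was also the 1 member past the test for gastrin present against absent, where 4.58% were called. In that comparison 7 members had an unadjusted p under 0.05 (20.6% of all probe sets). Ebp was the only member whose arrays with gastrin all lay below those without, as 0.791% of all probe sets did. The call against the wild type was narrow: of the 12 fits that left out 1 array, 3 kept it, with adjusted p from 0.0366 to 0.119. It was lost without any 1 wild-type or gastrin-infused array, without saline-infused replicate 1 or 2, and without double-knockout replicate 1 (limma, adjusted p = 0.0618). It was lost as well under median centring, with only the groups compared, with the Gapdh ratio as a covariate, with the replicate number as a block and when the pair of wild-type arrays with the high Gapdh ratio was left out, so that 10 of all 24 alternatives kept it (adjusted p from 0.0179 to 0.263). The call for gastrin present against absent held in all 12 such fits (adjusted p from 0.0219 to 0.0495), but not without both wild-type arrays whose Gapdh ratio was 1.5 or more (log2 fold change -0.28, limma, adjusted p = 0.117).

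**Figure D1:**
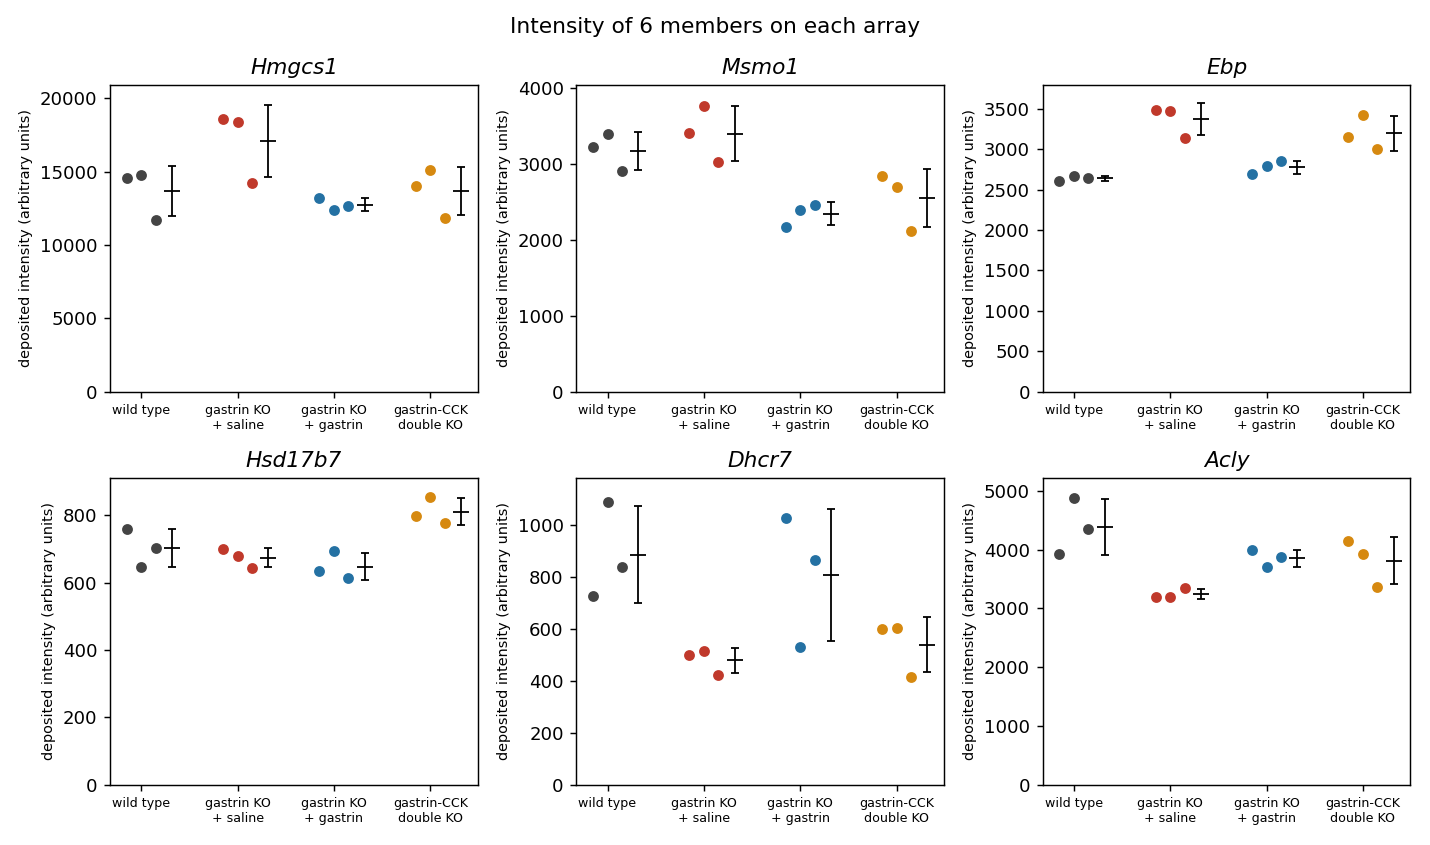
Deposited intensity (arbitrary units, axes from 0) of Hmgcs1, Msmo1, Ebp, Hsd17b7, Dhcr7 and Acly on each of 3 arrays in the 4 groups (points), with the group mean and SD beside them (black). Ebp lies at 2608 to 2852 on the 6 arrays of mice with gastrin and at 3005 to 3489 on the 6 without.

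The saline-infused gastrin knockout, the group without gastrin that carried an infusion, was the high point of most cholesterol enzymes. Against the wild type, 14 of the 17 sterol enzymes lay higher and 3 lower (Fdft1, Hsd17b7 and Dhcr7), with a median log2 fold change of 0.28. The side of 0 was the same for 14 of 17 under quantile normalization and under median centring. On the higher side lay 51.1% of all probe sets. The 17 enzymes moved together within groups, so such counts, here and below, are not of independent genes. The mean pairwise correlation of their deviations from group means was 0.41, against 0.08 for probe sets at or above the median. After quantile normalization it was 0.27, against 0.003. The 3 arrays of the knockout lay above all 3 of the wild type for 6 of the 17: Pmvk, Idi1, Tm7sf2, Nsdhl, Ebp and Sc5d. Among all probe sets, 10.9% did so, and 13.5% of those at or above the median. Dhcr7 was the 1 sterol enzyme lower without overlap, as were 12.4% of all probe sets. Only Ebp passed the test, and 7 members had an unadjusted p under 0.05 on the higher side and 2 on the lower (7.99% and 9.86% of all probe sets).

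All 6 measured enzymes of the mevalonate stretch, from HMG-CoA to farnesyl diphosphate, lay higher in the saline-infused knockout, by 0.20 (Mvk) to 0.66 (Pmvk) on the log2 scale, and none passed the test. Pmvk, phosphomevalonate kinase, read 235, 410 and 322 in the wild type and 412, 629 and 470 in the saline-infused knockout. The lowest knockout array thus lay 2 units above the highest wild-type array. The log2 fold change of Pmvk was 0.66 ± 0.26 (limma, adjusted p = 0.230). Hmgcs1, which makes HMG-CoA, read 14561, 14765 and 11694 against 18610, 18366 and 14254, and the 2 groups overlapped. Its log2 fold change was 0.32 ± 0.14 (limma, adjusted p = 0.272).

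In the squalene and sterol stretch the differences from the wild type ran both ways. Sc5d, the desaturase that acts near the end of the route, read 1146, 1139 and 1376 in the wild type and 1845, 2045 and 1739 in the saline-infused knockout. These groups were well apart, with a log2 fold change of 0.62 ± 0.16 (limma, adjusted p = 0.0812). A dimmer Sc5d probe set read 233, 288 and 394 against 303, 337 and 404, with overlap. It also differed in sign from the brighter one for double knockout against saline. Dhcr7, the reductase that takes the product of Sc5d to cholesterol, had the lowest fold change of the 17. It read 725, 1090 and 839 in the wild type and 499, 515 and 423 in the saline-infused knockout. Its log2 fold change was -0.87 ± 0.26 (limma, adjusted p = 0.128). Neighbouring steps of 1 route thus lay on opposite sides of the wild type, with neither past the test. Tmem97, a lipid-binding membrane protein that is a close relative of Ebp, had the lowest value among 11 other measured genes of sterol sensing, uptake and efflux, and its pattern was singled out after its values were seen. It read 811, 1114 and 919 in the wild type, 372, 578 and 399 in the saline-infused knockout, 1024, 708 and 845 in the gastrin-infused knockout and 751, 786 and 465 in the double knockout. The direction followed Dhcr7 and not Ebp, with a log2 fold change of -1.09 for the saline-infused knockout against the wild type (limma, adjusted p = 0.0620).

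**Figure D2:**
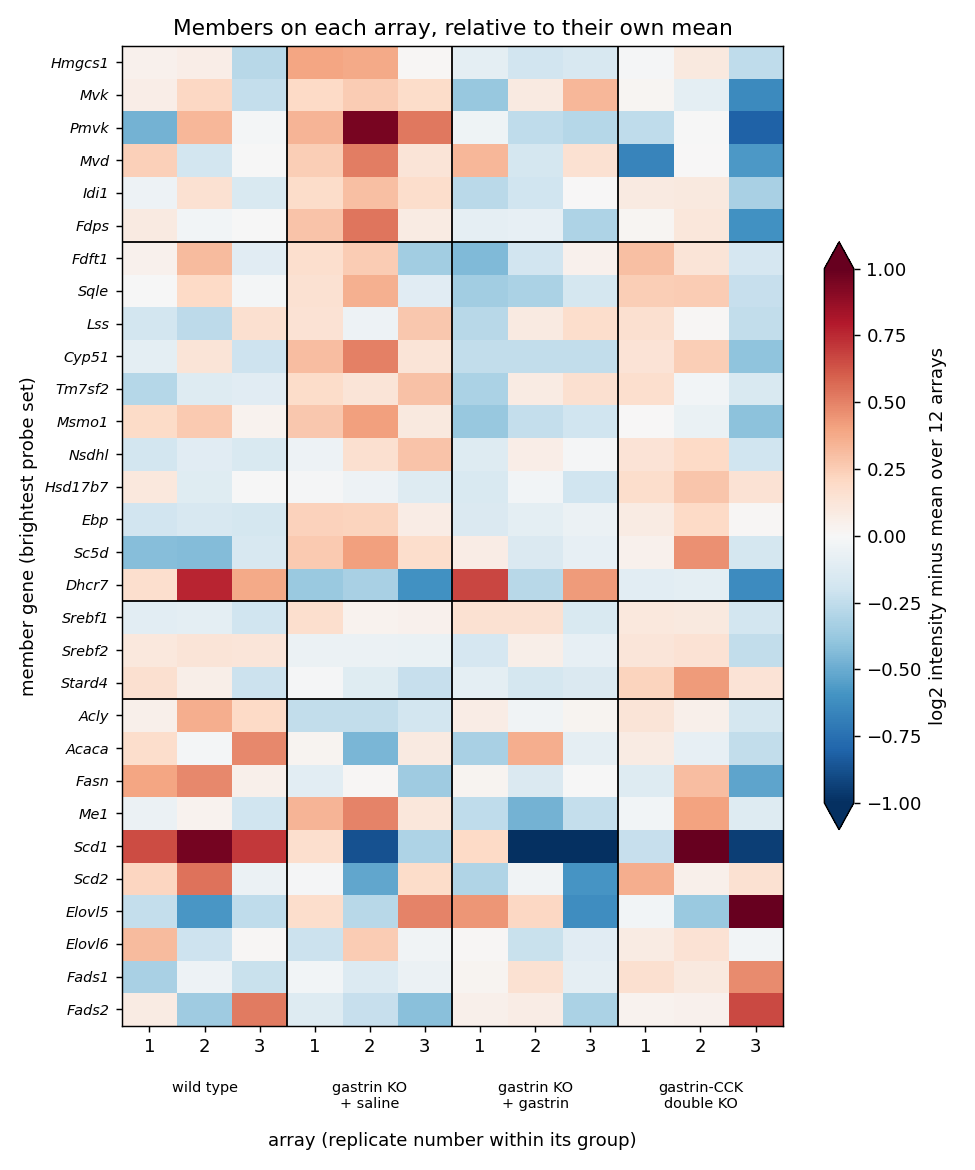
Each cell is the log2 intensity of a member (rows, brightest probe set) on 1 array (columns, replicate number within its group) minus the member's mean over 12 arrays, with the colour scale ending at -1 and 1. Lines separate mevalonate enzymes, squalene and sterol enzymes, regulators with the sterol carrier, and fatty acid enzymes. The saline-infused columns are mostly red in the upper rows, Dhcr7 runs the other way, and double-knockout replicate 3 is mostly blue there.

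Gastrin infusion into the knockout, set against saline infusion, gave the reverse picture. Of the 17 sterol enzymes, 16 lay lower and only Dhcr7 higher, with a median log2 fold change of -0.28. The split was 16 to 1 under quantile normalization and median centring too, and 49.1% of all probe sets lay on the lower side. For 9 of them (Hmgcs1, Pmvk, Idi1, Fdps, Sqle, Cyp51, Msmo1, Ebp and Sc5d) all 3 gastrin-infused arrays lay below all 3 saline-infused arrays. With Me1 that made 10 of the 30 members, against 10.3% of all probe sets and 14.1% of those at or above the median. Dhcr7 and Acly were higher without overlap (10.5% of all probe sets). None of the 30 members passed limma's test after adjustment, where 1.25% of all probe sets were called, and 9 had an unadjusted p under 0.05 on the lower side and 2 on the higher (7.93% and 8.04% of all probe sets). With a mean-dependent prior variance (limma trend), 1 member passed, Ebp (log2 fold change -0.28). The saline-infused arrays are shared with the comparison against the wild type, so the opposite signs of the pair are not independent of each other.

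The lowest adjusted p belonged to Msmo1, the methyl sterol oxidase that removes methyl groups from the ring. It read 3416, 3765 and 3030 with saline and 2173, 2402 and 2468 with gastrin. The groups were clearly apart, and the log2 fold change was -0.53 ± 0.13 (95% confidence interval -0.82 to -0.24, limma, adjusted p = 0.0815). Cyp51, the demethylase of an earlier step, read 2025, 2327 and 1792 with saline and 1383, 1379 and 1380 with gastrin. The 3 gastrin-infused arrays lay within 4 units of each other, and the log2 fold change was -0.56 ± 0.17 (limma, adjusted p = 0.149).

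In the mevalonate stretch all 6 enzymes lay lower with gastrin, by 0.19 (Mvd) to 0.80 (Pmvk) on the log2 scale. Hmgcs1 read 13232, 12358 and 12629 with gastrin, all below the lowest saline-infused array at 14254, with a log2 fold change of -0.41 ± 0.14 (limma, adjusted p = 0.186). Pmvk read 317, 273 and 267 with gastrin against 412, 629 and 470 with saline (log2 fold change -0.80 ± 0.26, limma, adjusted p = 0.174). Fdps, which makes farnesyl diphosphate, had a log2 fold change of -0.46 ± 0.19, and Sqle, the epoxidase acting on squalene, one of -0.41 ± 0.16. Dhcr7 read 1025, 531 and 866 with gastrin, above the saline range of 423 to 515, with a log2 fold change of 0.71 ± 0.26 (limma, adjusted p = 0.228). Its middle array stood only 16 units above the saline range.

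Between the 2 groups with gastrin, the gastrin-infused knockout and the wild type, the differences of the sterol enzymes were smaller in their median. The median log2 fold change of the 17 was -0.12 (10 lower, 7 higher, with 50.4% of all probe sets lower), and none of the 30 members passed limma's test, where 0.11% of all probe sets were called. At an unadjusted p under 0.05 there were 2 members, against 11.6% of all probe sets, and limma trend called 0 as well. Msmo1 had the lowest fold change of the sterol enzymes here, reading 2173 to 2468 against 2904 to 3395 in the wild type (log2 fold change -0.43 ± 0.13, limma, adjusted p = 0.264). Fdps, Sqle and Cyp51 were likewise lower without overlap, which made 4 of the 17, against 9.41% of all probe sets. Ebp and Sc5d were higher without overlap, 2 of the 17, against 7.31% of all probe sets. The median of -0.12 rested on few arrays: it was -0.013 without wild-type replicate 2, -0.060 without wild-type replicate 1 and -0.073 without gastrin-infused replicate 2. It was -0.058 with the Gapdh ratio as a covariate and -0.045 with the pair of high-ratio wild-type arrays left out.

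**Figure D3:**
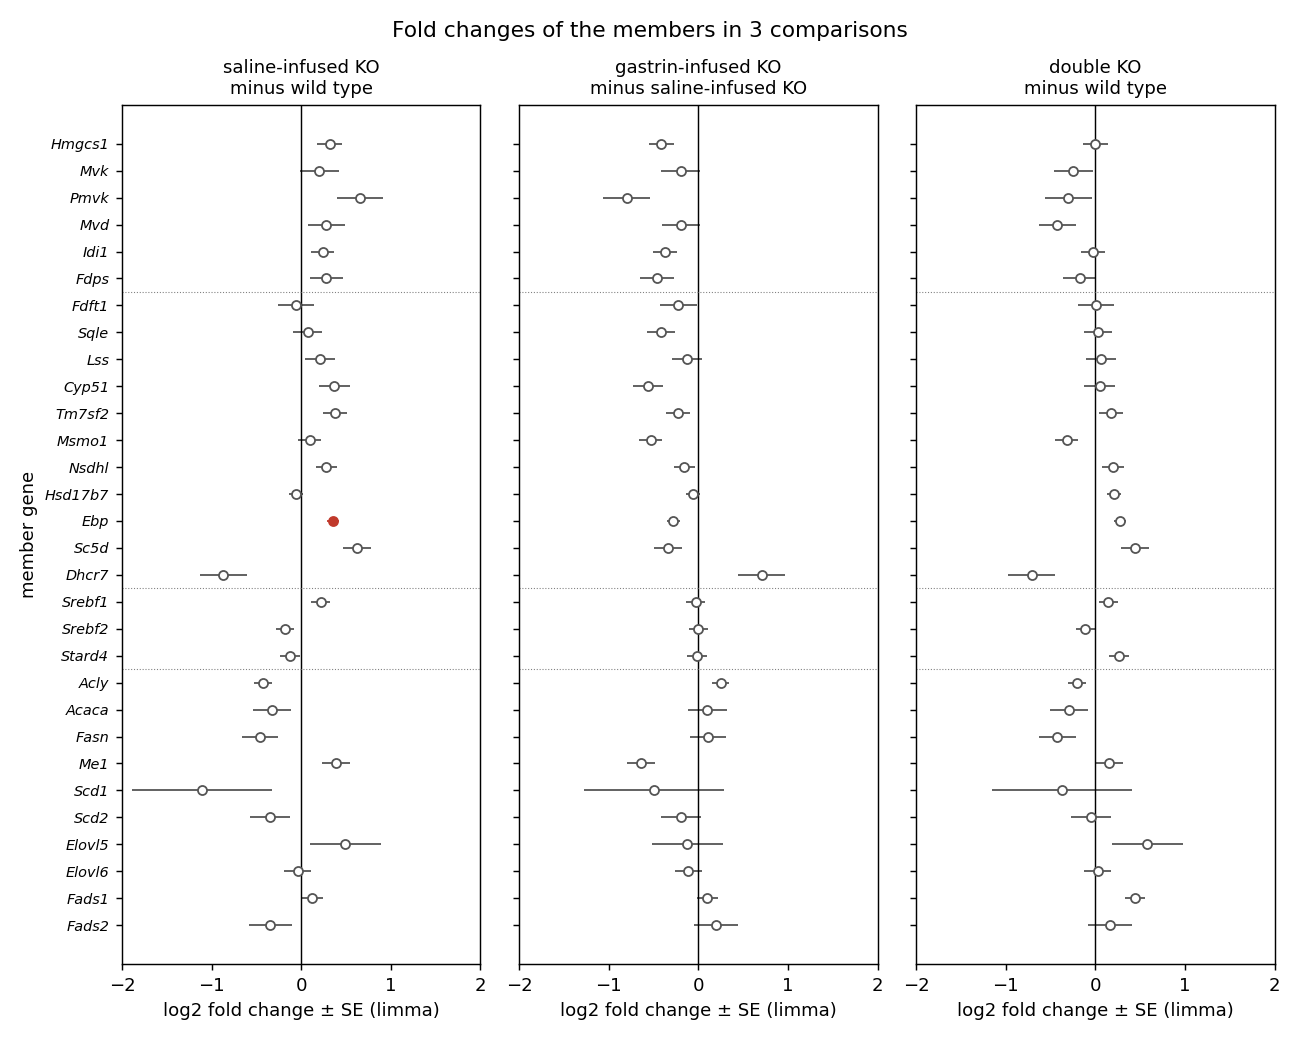
Log2 fold change (horizontal axis, points) with its SE (bars, limma) of the 30 members in 3 comparisons, with the filled red point past the test at adjusted p under 0.05. Of the 17 enzymes above the middle dotted line, 14 lie right of 0 in the left panel and 16 left of 0 in the middle panel, and the left and middle panels share the saline-infused arrays.

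Markers of other cells differed between the same groups. The summed intensity of 5 of 6 proliferation genes measured was 9003 to 10250 in the wild type, 9768 to 13392 with saline, 6472 to 7626 with gastrin and 8690 to 14099 in the double knockout. It was thus lowest in the gastrin-infused knockout, where the sterol enzymes were also low. The sum of 7 of 8 parietal cell markers was 201429 to 239601 in the wild type, 155518 to 184722 with saline, 213741 to 220807 with gastrin and 143494 to 152115 in the double knockout. This sum was thus lowest in the groups without gastrin, but not every marker followed it. Car2 averaged 59372 with saline and 53025 in the wild type. In the double knockout 5 of the 7 lay higher than with saline, as did 48.8% of all probe sets, and 2 lower. Squamous markers of the adjoining forestomach, 11 of 12 measured, summed to 20682 to 38392 in the wild type and 24244 to 73724 with saline. They summed to 12714 to 35880 with gastrin and 12365 to 60842 in the double knockout. The 8 markers of stroma and smooth muscle all lay lower in the saline-infused knockout than in the wild type, and all 8 lay higher with gastrin than with saline, none past the test in either. Their sum was 16491 to 18712 in the wild type, 9479 to 17638 with saline, 17426 to 34029 with gastrin and 7115 to 13903 in the double knockout. The 34029 was gastrin-infused replicate 1, and its replicates stood at 21128 and 17426. On that array Acta2 read 14904, against 5580 and 5610, and Tagln 7027, against 803 and 631. Sparc, a matrix protein of connective tissue, had group means of 2443 in the wild type, 777 with saline, 2415 with gastrin and 1071 in the double knockout. All 4 measured markers of enterochromaffin-like cells, the histamine cells that gastrin acts on, lay higher with gastrin than with saline. None overlapped, as for 10.5% of all probe sets. Of the 4, 3 (Chga, Chgb and Cckbr) passed the test there, where 1.25% of all probe sets were called. Hdc did not by its brightest probe set, reading 212, 73 and 22 with saline and 1229, 1897 and 1133 with gastrin. It did pass by another. Of all probe sets in this comparison, Hdc had the highest log2 fold change, 6.54, and the lowest adjusted p (limma, adjusted p = 1.81e-06). The sum of the 4 was 7978 to 13552, 2858 to 3112, 15561 to 23242 and 2915 to 4092. All 4 surface mucous markers fell in the double knockout relative to the wild type and to the saline-infused knockout. In these comparisons 4.14% and 5.98% of all probe sets were called. Their sum was 230962 to 247640 in the double knockout, against 317458 to 393591 in the other groups. The sum of 4 chief cell markers was also lowest there, at 97479 to 101993, but single markers differed. Pga5 had its highest group mean in the double knockout, 11825, against 11729 in the wild type, 10092 with saline and 6075 with gastrin. Bhlha15 averaged 1582 in the double knockout and 1087 with saline. Against saline, 2 of the 4 chief markers lay higher and 2 lower. The surface markers, Pgc, the brightest chief marker, and Atp4b of the parietal list lie near the top of the array range. That top was lower on the double-knockout arrays, and its part in the lower values of these markers there was not tested. Liver markers, 5 of 6 measured, all lay lower with saline than in the wild type and higher with gastrin than with saline. Of them, 1, Apoa1, passed the test in the latter. Among blood markers, 3 of 4 measured, Hbb-b2 had group means of 138 in the wild type, 453 with saline, 467 with gastrin and 89 in the double knockout. It passed the test for saline and for gastrin against the wild type (limma, adjusted p = 0.0146 and 0.0413). For saline and gastrin against the double knockout it passed too (limma, adjusted p = 0.00296 and 0.00263). Shares called there were 2.08%, 0.11%, 5.98% and 5.83% of all probe sets. Alas2 also had higher means in both infused groups, without passing. Hba-a1 did not, by the probe set that carries its symbol alone. A probe set shared by Hba-a2 and Hba-a1 was lower in the double knockout than with saline, as was Hbb-b2. Its log2 fold change of -3.25 was the lowest there among the 11313 probe sets no dimmer than the median one. Hbb-b2 read 81, 74 and 113 on the double-knockout arrays, close to their noise levels of 74, 67 and 85.

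All measured proliferation and parietal markers lay above the noise on every array. Krt14, Krt15 and Trp63 of the forestomach list lay within it on some, as did Myh11 of the smooth muscle list. So did Hdc, and Fgb and Ahsg of the liver list. Alb of that list read 986, 919 and 2703 in the wild type and 2225, 303 and 325 with gastrin. The part of these cells in the sterol results was not tested, except that with the forestomach level as a covariate the median of the 17 enzymes for gastrin against saline was -0.40.

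In the double knockout the sterol enzymes lay on both sides of the wild type. Against the wild type they had a median log2 fold change of 0.00, with 10 higher and 7 lower (51% of all probe sets lay higher), and 8 higher and 9 lower under median centring. This median had no stable sign: it ran from -0.09 without wild-type replicate 3 to 0.13 without double-knockout replicate 3 or with array weights, and 19 of 24 alternatives left it above 0. None of the 30 members passed limma's test, where 4.14% of all probe sets were called, 7 had an unadjusted p under 0.05 (19.6% of all probe sets), and limma trend called 1, Ebp. Within the route the stretches differed: 5 of 6 mevalonate enzymes lay lower than the wild type (median -0.21) and 9 of 11 squalene and sterol enzymes higher (median 0.07). Ebp (log2 fold change 0.28, limma, adjusted p = 0.0601) and Sc5d (0.45 ± 0.16, limma, adjusted p = 0.156) stood at the high end, and Dhcr7 at the low end (-0.71 ± 0.26, limma, adjusted p = 0.173).

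Against the saline-infused knockout, 14 of the 17 sterol enzymes lay lower in the double knockout, against 48.5% of all probe sets, with a median of -0.20, and all 6 mevalonate enzymes were among them (median -0.45). None of the 30 members passed limma's test, where 5.98% of all probe sets were called, 9 had an unadjusted p under 0.05 (21.5% of all probe sets), and limma trend called 0. For Mvk, Pmvk, Mvd, Idi1 and Msmo1 the double knockout was lower without overlap, against 12.7% of all probe sets, and Hsd17b7 was the 1 sterol enzyme higher without overlap, against 13.5%. The 11 squalene and sterol enzymes had a median of only -0.08, and Ebp stood close in both groups, at 3195 in the double knockout and 3369 with saline (group means, log2 fold change -0.08 ± 0.07, limma, adjusted p = 0.587). Mvd, the decarboxylase that makes isopentenyl diphosphate, read 879, 1056 and 811 with saline and 469, 744 and 498 in the double knockout (log2 fold change -0.71 ± 0.21, limma, adjusted p = 0.0852). Pmvk read 273, 326 and 186 there, below the saline range of 412 to 629 (log2 fold change -0.96 ± 0.26, limma, adjusted p = 0.0655). The 2 groups differ in Cck and in infusion at once, and these cannot be told apart.

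Single double-knockout arrays weighed on these values in both directions. The mean log2 deviation of the 17 sterol enzymes from their 12-array means was 0.03, 0.11 and -0.33 on the double-knockout arrays, against -0.06, 0.06 and -0.06 in the wild type, 0.17, 0.29 and 0.07 with saline and -0.13, -0.12 and -0.03 with gastrin. Double-knockout replicate 3 was the lowest of the 12 arrays, and all 3 saline-infused arrays were above all wild-type and gastrin-infused arrays. Double-knockout replicate 2, at 0.11, lay above the lowest saline-infused array. After quantile normalization the double-knockout values were 0.04, 0.03 and -0.29. Without double-knockout replicate 3 the median against the saline-infused knockout was -0.12, and without replicate 2 it was -0.34. Without replicate 3, 3 members passed the test for gastrin present against absent (Cyp51, Ebp and Sc5d).

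Gastrin against saline in the single knockout, and wild type against double knockout, share no array and both set mice with gastrin against mice without. Of the 17 sterol enzymes, 10 lay lower with gastrin in both and 1 (Dhcr7) higher in both. Several of the 10 lay near 0 for wild type against double knockout: Hmgcs1 (-0.0003), Fdft1 (-0.004), Sqle (-0.03) and Cyp51 (-0.05). Under median centring Hmgcs1 and Fdft1 lay on the other side of 0 there, so the count depends on the scaling. Among all 22626 probe sets, 6098 lay lower in both and 5980 higher in both. Over all 4 groups together, 14 of the 17 lay lower with gastrin present, against 51.2% of all probe sets, with a median log2 fold change of -0.17. Sc5d (-0.39 ± 0.11, limma, adjusted p = 0.0837) and Cyp51 (-0.30 ± 0.12, limma, adjusted p = 0.197) followed Ebp without passing the test.

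Hsd17b7, the ketosteroid reductase that works with Nsdhl and Msmo1 in removing ring methyl groups, was the second gene past the test. It read 761, 648 and 702 in the wild type, 699, 681 and 644 in the saline-infused knockout, 636, 693 and 614 in the gastrin-infused knockout and 799, 855 and 778 in the double knockout. By this probe set the double-knockout arrays lay above all 9 others. A dimmer probe set read 308, 239 and 184 in the double knockout and 141, 73 and 166 with gastrin. With saline it read 217, 128 and 347, and in the wild type 176, 164 and 212, both overlapping the double knockout. By the brighter probe set, relative to the double knockout (mean 810.7 ± 39.8, SD, n = 3) the gastrin-infused knockout (647.7 ± 40.8, SD, n = 3) was lower by a log2 fold change of -0.32 ± 0.08, 1.25-fold (limma, adjusted p = 0.0486). It was the 1 member of 30 called there, where 5.83% of all probe sets were, and 6 members had an unadjusted p under 0.05 (21.6% of all probe sets). The call sat at the threshold: of the 12 fits that left out 1 array, only those without wild-type replicate 1 or 2 kept it (adjusted p from 0.0444 to 0.133). It was lost without any array of the 2 groups compared, with adjusted p from 0.0663 to 0.133. It was also lost under quantile normalization, median centring, a floor of 1, only the groups compared, the Gapdh ratio or the forestomach level as a covariate, the replicate number as a block, or the pair of high-ratio wild-type arrays left out. In all, 6 of 24 alternatives kept it (adjusted p from 0.0299 to 0.133). Against the wild type the double knockout stood 0.21 higher on the log2 scale (limma, adjusted p = 0.195).

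No regulator passed the test in any comparison, and nor did the sterol carrier. Srebf2, which encodes SREBP-2, read 2211, 2243 and 2230 in the wild type, 1970, 1967 and 1958 with saline, 1830, 2139 and 1938 with gastrin and 2226, 2268 and 1727 in the double knockout. The saline-infused arrays all lay below the wild type, the reverse of most enzymes, with a log2 fold change of -0.18 ± 0.10 (limma, adjusted p = 0.407). A dimmer probe set of Srebf2 gave the other sign in this comparison, reading 1101, 913 and 1431 against 1455, 1440 and 1085. Srebf1, which encodes SREBP-1, lay higher with saline without overlap (2443, 2228 and 2237 against 2018, 2031 and 1896), with a log2 fold change of 0.22 ± 0.11 (limma, adjusted p = 0.337). Its difference between gastrin and saline was -0.03 ± 0.11, and that of Srebf2 was 0.00 ± 0.10, with a 95% confidence interval of -0.24 to 0.24. Stard4, a soluble carrier of cholesterol, was lower in the gastrin-infused than in the double knockout, at 1049, 995 and 1015 against 1310, 1512 and 1237 (log2 fold change -0.40 ± 0.11, limma, adjusted p = 0.0729).

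The fatty acid enzymes did not share the pattern of the sterol enzymes. In the saline-infused knockout 7 of 10 lay lower than the wild type and 3 higher (48.9% of all probe sets lay lower), with a median log2 fold change of -0.34, and none passed the test. Acly, which makes cytosolic acetyl-CoA from citrate, read 3927, 4879 and 4342 in the wild type and 3193, 3191 and 3340 with saline. These groups were well apart (log2 fold change -0.43 ± 0.10, limma, adjusted p = 0.0624). With gastrin it read 3989, 3696 and 3865, above the saline arrays but with a log2 fold change of only 0.25 ± 0.10 (limma, adjusted p = 0.261). Fasn, fatty acid synthase, read 3976, 4236 and 3140 in the wild type and 2821, 3050 and 2367 with saline (log2 fold change -0.46 ± 0.20, limma, adjusted p = 0.280). With gastrin Fasn read 3094, 2736 and 3015, within the range of the saline arrays but for its top. By these probe sets Acly and Fasn thus had their highest group means in the wild type. The gastrin-infused knockout stood between the saline group and the wild type for Acly, and near the saline group for Fasn. The next brightest of the 5 Acly probe sets had means of 2975 with saline and 2986 with gastrin. Its means were 3662 in the wild type and 3620 in the double knockout. By it the gastrin-infused group stood near the saline group.

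Me1, malic enzyme, which supplies NADPH for lipid synthesis, went with the sterol enzymes. Its brighter probe set read 13903, 14764 and 12597 in the wild type, 18315, 20399 and 15590 with saline, 12083, 10399 and 12235 with gastrin and 14156, 19060 and 13197 in the double knockout. All 3 gastrin-infused arrays lay below the other 9, with a log2 fold change of -0.64 ± 0.15 against saline (limma, adjusted p = 0.0816). The dimmer probe set of Me1 read 9030, 9208 and 9563, then 10659, 13134 and 10527, then 6847, 5656 and 6361, then 9662, 13306 and 9496 in the same order of groups. It showed the same order and passed the test, with a log2 fold change of -0.86 ± 0.14 against saline, 1.82-fold lower (limma, adjusted p = 0.0342). It also passed against the double knockout (log2 fold change -0.77 ± 0.14, limma, adjusted p = 0.0196) and for gastrin present against absent (-0.53 ± 0.10, limma, adjusted p = 0.0251). Both probe sets of Me1 thus lay lowest with infused gastrin.

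Elovl6, which lengthens saturated and monounsaturated fatty acids, gave a different answer from each of its probe sets. The brighter one read 1015, 1409 and 1155 with saline and 1187, 1014 and 1090 with gastrin, and these overlapped (log2 fold change -0.11 ± 0.15, limma, adjusted p = 0.798). The dimmer one read 412, 382 and 423 in the wild type, 407, 453 and 454 with saline, 308, 305 and 283 with gastrin, and 483, 470 and 408 in the double knockout. All 3 gastrin-infused arrays lay below the other 9, and Elovl6 fell by this probe set, with a log2 fold change of -0.55 ± 0.08 against saline (limma, adjusted p = 0.0273) and -0.60 ± 0.08 against the double knockout (limma, adjusted p = 0.00723). Its value for gastrin present against absent was -0.36 ± 0.06 (limma, adjusted p = 0.0169). Against the wild type it was -0.44 ± 0.08 (limma, adjusted p = 0.106). Of the 15 members with several probe sets above the noise, the sign was the same on all of a gene's probe sets for 10 in the comparison of gastrin with saline, and Acly, Fdft1, Fads2, Scd1 and Scd2 differed. It was the same for 13 for gastrin-infused against double knockout. For gastrin present against absent it was 8, with Fdft1, Lss and Mvd the sterol enzymes that differed. For double knockout against wild type it was also 8, with Fdft1, Hmgcs1 and Lss differing.

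**Figure D4:**
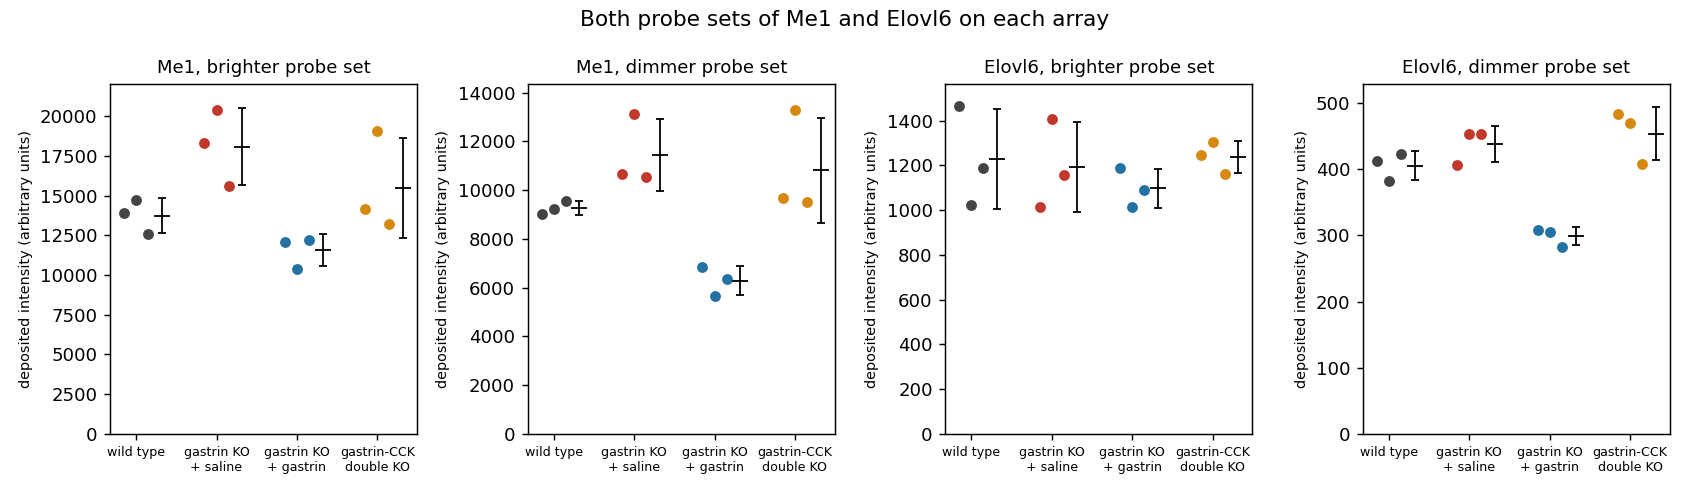
Deposited intensity (arbitrary units, axes from 0) of the brighter and the dimmer probe set of Me1 and of Elovl6 on each of 3 arrays in the 4 groups (points), with the group mean and SD (black). Both Me1 probe sets and the dimmer Elovl6 probe set, at 283 to 308, are lowest with gastrin, while the brighter Elovl6 probe set overlaps between groups.

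Among the desaturases, Scd1, which makes oleate, had the widest spread of all members. It read 1774, 2195 and 1848 in the wild type, 1267, 619 and 913 with saline, 1301, 407 and 481 with gastrin and 964, 5854 and 587 in the double knockout. The wild type lay above all 6 arrays of the infused knockouts, and double-knockout replicate 2 stood far above the other 11. The log2 fold change for saline against the wild type was -1.11 ± 0.78 (95% confidence interval -2.88 to 0.66, limma, adjusted p = 0.504). Some fat cell genes peaked on the same array and others did not. Adipoq, the fat hormone adiponectin, read 417, 316 and 553 in the wild type, 220, 68 and 77 with saline, 151, -9 and 25 with gastrin, and 109, 1813 and 5 in the double knockout. Car3, a carbonic anhydrase abundant in fat, read 5584 on that double-knockout array and 32 to 1094 on the other 11. Fabp4 and Cidec, a fatty acid carrier and a lipid droplet protein, were higher there than on its replicates (Fabp4 at 7497 against 2198 and 1908). Retn, the hormone resistin, and Lep, the hormone leptin, were lower there than on the replicates, with Retn at 792 against 905 and 933, and Lep at 72 against 105 and 130, near the noise. The summed intensity of the 6 of 8 fat markers measured was 8878 to 10978 in the wild type, 8817 to 10078 with saline, 5603 to 7759 with gastrin and 3349 to 16411 in the double knockout, and their part in the Scd1 values was not tested. Adipoq lay within the noise on at least 1 array of each group but the wild type. The sterol enzymes on that array were at a mean deviation of 0.11, against 0.03 and -0.33 on its 2 replicates.

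**Figure D5:**
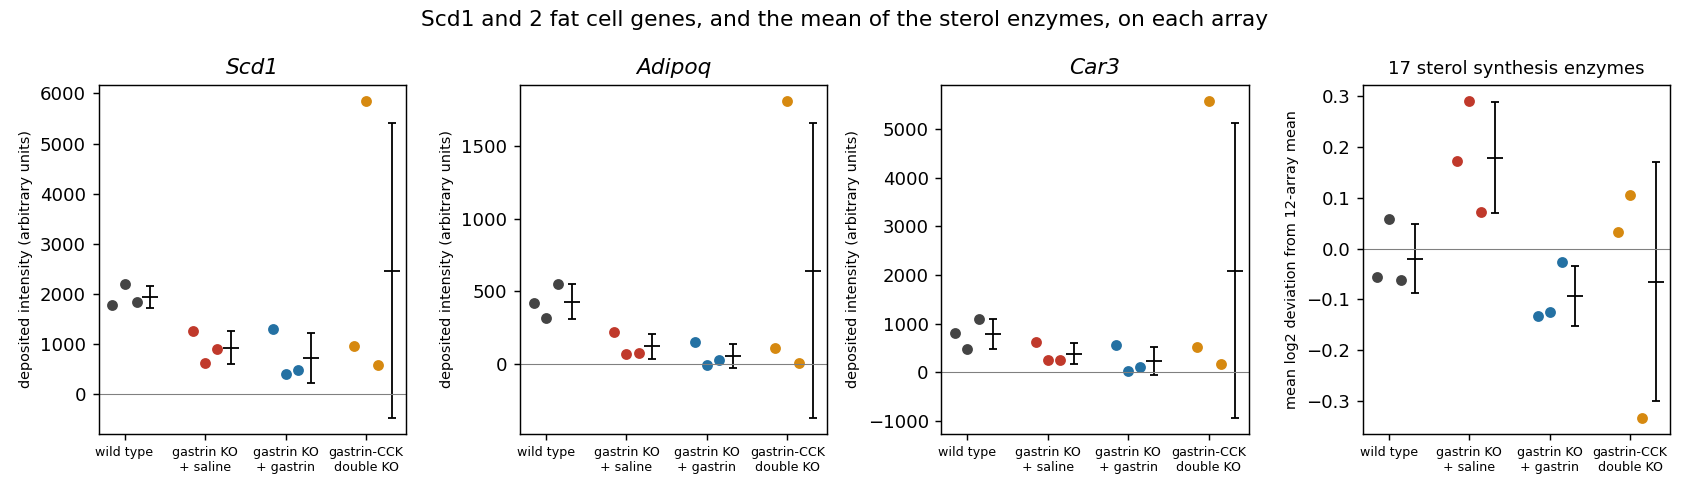
Deposited intensity (arbitrary units) of Scd1, Adipoq and Car3, and the mean log2 deviation of 17 sterol enzymes from their 12-array means, on each of 3 arrays in the 4 groups (points), with the group mean and SD (black). Scd1 (5854), Adipoq (1813) and Car3 (5584) peak on the same double-knockout array, and the sterol enzymes do not peak there.

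The remaining desaturases and elongase showed small or uneven differences. Fads1, the delta-5 desaturase, was highest in the double knockout (402, 384 and 497 against 287, 346 and 308 in the wild type, log2 fold change 0.44 ± 0.11, limma, adjusted p = 0.0677). Scd2, Elovl5, Fads2 and Acaca, the carboxylase that commits acetyl-CoA to fatty acids, passed no test and had adjusted p in limma of at least 0.238 in every comparison. Elovl5 had the largest SE of the 4, 0.39, with 1 double-knockout array at 1047 and the others at 330 to 716.

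Other genes of the same pathways were taken from 2 lists. Of the 11 measured genes of sterol sensing, uptake and efflux, 1 passed the test in 1 comparison, where 5.98% of all probe sets were called: Npc2, which hands cholesterol out of the lysosome, rose in the double knockout relative to the saline-infused knockout (8064 ± 321 to 10840 ± 817, SD, n = 3 each, log2 fold change 0.42 ± 0.10, limma, adjusted p = 0.0456). In that comparison 10 of the 11 lay higher (48.8% of all probe sets did), while 14 of the 17 sterol enzymes lay lower. Of the 16 measured genes of fatty acid and glyceride synthesis, 2 fell there, against the same 5.98%. They were Dgat2, which makes triglyceride (10029 ± 1011 to 6000 ± 740, log2 fold change -0.74 ± 0.13, limma, adjusted p = 0.0170), and Idh1, which supplies NADPH (8033 ± 399 to 5629 ± 391, log2 fold change -0.51 ± 0.11, limma, adjusted p = 0.0293). Hsd17b12, which acts in the elongation of long fatty acids, was lower with gastrin present than absent (log2 fold change -0.27 ± 0.06, limma, adjusted p = 0.0392), the 1 of the 16 called there, against 4.58% of all probe sets. It read 5055 to 6108 on the 6 arrays with gastrin and 6084 to 7356 on the 6 without, so that the groups overlapped at 6084 to 6108. Dgat2, Idh1 and Hsd17b12 had their highest group mean in the saline-infused knockout, as Me1 did.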

How the data were processed

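RNA from mouse fundic mucosa was measured on 12 arrays, 3 per group, per the labels from about 1 µg of total RNA labelled with biotin. The deposited table holds 1 linear intensity per probe set and array, in whole numbers, some below 0; the authors' scaling and summary method are not stated in these sources. Controls (64 of 22690 probe sets) were left out. Deposited intensities were floored at 16 and converted to log2. An array's noise level was its percentile 1 with the sign turned (67 to 96). One limma model (limma 3.58.1, R 4.3.3) with a mean per group was fitted over all arrays (8 residual and 1.10 prior degrees of freedom) and 7 contrasts were taken, with p-values adjusted by Benjamini-Hochberg across all 22626 probe sets and called under 0.05. Contrasts share arrays. The fit was tested on simulated data. Probe sets got names from a platform table (20380 with 1 symbol, 691 with several, 1555 not listed); RefSeq GRCm38.p6 symbols were the same for all 30 members. The value on every array is printed for members past the test and for members singled out after their values were seen; of other pathway genes, those past the test were named. Members and lists were chosen with earlier results of these data known. Correlations of deviations from group means between same-numbered arrays ran from -0.36 to 0.49 over 18 pairs, and 5 lay over 0.1. The highest was between saline-infused and double-knockout replicate 2. Differently numbered arrays were not compared, so this cannot decide whether the replicate numbers pair the arrays. Alternatives numbered 23 planned, 12 of them leaving out 1 array, and 2 added after the data were seen. Figures used Python 3.11.15 and matplotlib 3.10.9.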

Additional observations from a re-analysis of the deposited data

How the results depend on the processing

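No value past the test changed sign. Among medians, which have no test, that of the sterol enzymes for double knockout against wild type kept its sign in 19 of 24 alternatives (-0.095 to 0.13). That of the members kept it in 20 of 24 there (-0.060 to 0.12), and in 23 of 24 for double knockout against saline (-0.15 to 0.030). The other 11 medians kept theirs throughout. The number of members past the test, 1 for saline-infused knockout against wild type, was 3 with quantile normalization, 2 with a floor of 64 or limma trend, 4 with only probe sets at or above the median, 0 with median centring, only the groups compared or the Gapdh ratio as a covariate, and 0 to 2 with 1 array left out. For gastrin against saline it was 0, but 2 with quantile normalization, the brighter probe sets or any probe set of a gene, and 1 with a floor of 64 or limma trend. For double knockout against wild type it was 0, but 1 with quantile normalization, a floor of 64 or limma trend and 2 with array weights. For double knockout against saline it was 0, but 1 with quantile normalization, 3 with the brighter probe sets, 2 with array weights and 0 to 1 with 1 array left out. For gastrin-infused against double knockout it was 1, Hsd17b7, but a different 1, Me1, with quantile normalization or the forestomach covariate, Stard4 without wild-type replicate 3, 0 with median centring, a floor of 1, only the groups compared or the Gapdh covariate, 2 with the brighter probe sets, 3 with any probe set and 0 to 1 with 1 array left out. For gastrin present against absent it was 1, but 4 with quantile normalization or the brighter probe sets, 3 with any probe set and 1 to 3 with 1 array left out. For gastrin-infused knockout against wild type it was 0 throughout.

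Whether the replicate numbers pair arrays of different groups was not settled. With the replicate number as a block, the count was 0 for saline-infused knockout against wild type and 0 for gastrin-infused against double knockout, and the other 5 counts did not move.

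Chosen after the data were seen, the forestomach level as a covariate gave 2, 1, 1, 2 and 3 members past the test for saline against wild type, gastrin against saline, double knockout against wild type, double knockout against saline, and gastrin present against absent. Leaving out both wild-type arrays of high Gapdh ratio gave 0 for saline against wild type, for gastrin-infused against double knockout and for gastrin present against absent. The cause of these shifts was not tested. Over the 24 alternatives the sterol enzyme median ran from 0.20 to 0.30 for saline against wild type and from -0.40 to -0.25 for gastrin against saline. Arrays of 3 per group limit the precision, and dim probe sets lie nearest the noise.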
